A study of Mus musculus with 12 samples.

Results

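Microglia, the resident macrophages of the brain, were followed here through 33 genes in the ventral hippocampus of mice. The set was chosen by gene symbol, and all 33 symbols were found among the 54532 genes of the deposited count table, where 32777 genes have a count above 0 in 1 library or more. By role the 33 genes fall into 11 identity genes, which mark resting microglia of the healthy brain, 10 myeloid genes that microglia share with other macrophages, and 12 activation genes. The activation genes join the markers Cd68, Tlr4 and Nlrp3 to genes of the disease-associated microglial state.

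Microglia depend on signals through the receptor Csf1r, keep their identity through transcription factors such as Sall1 and PU.1, and sense their surroundings through receptors for nucleotides (P2ry12, P2ry13) and for fractalkine (Cx3cr1). When they respond to injury, amyloid or demyelination, they commonly lower identity genes such as P2ry12 and, through the lipid receptor Trem2 and its adaptor Tyrobp, raise Apoe, Axl, Cst7, Itgax, Spp1, Lpl, Clec7a and Cd9. A separate inflammatory response runs through the endotoxin receptor Tlr4 and the Nlrp3 inflammasome and ends in cytokines such as Il1b and Tnf.

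The tissue was taken from 4 groups of 3 libraries. SSDS-shACOT12 mice had a knockdown of ACOT12, a thioesterase that splits acetyl-CoA, in the liver and were exposed to SSDS; SSDS-GFP mice received AAV8-eGFP and were exposed to SSDS; CSDS mice were exposed to CSDS; Control mice had no treatment. All are labelled wild type, and strain, sex and age are not given in the labels. The abbreviations are not spelled out there either; in this field CSDS and SSDS usually mean chronic and subthreshold social defeat stress. The column names of both SSDS groups carry TBG, the usual short name of a promoter active in liver cells. No virus is named for the CSDS and Control groups, so SSDS-GFP against Control joins virus and stress. SSDS-shACOT12 against Control likewise joins the knockdown, with its delivery, and stress. It is not stated whether each replicate is a different animal; p-values therefore rest on the variation among libraries, which may be technical. The targeted gene, Acot12, had 3 to 14 counts per library in the hippocampus and checks neither the knockdown in the liver nor the labels.

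The libraries held 14656714 to 17694570 counts, so that 1 count was worth 0.0572 to 0.0722 CPM (counts scaled to a common library size). Of the 33 genes, 30 passed the filter on low counts and were tested among 16915 genes; the activation genes Cst7, Itgax and Clec7a did not pass. Along the first principal component of all tested genes (31.3% of the variance) 3 libraries stood apart: SSDS-shACOT12 1 at -37.4, SSDS-shACOT12 3 at -63.1 and SSDS-GFP 3 at -35.7, with the other 9 at -5.82 or above. Mitochondrial transcripts made up 3.23% and 4.31% of the counts in SSDS-shACOT12 1 and 3, 6.65% in SSDS-GFP 3 and 6.31% to 9.24% in the others. The summed level of 11 monocyte and neutrophil markers was 10.1 CPM in SSDS-shACOT12 3 and 8.92 CPM in SSDS-GFP 3, against 0.433 to 3.95 CPM in the other 10 libraries. These 2 sums are 163 and 156 counts. Chil3, S100a8 and S100a9 reached 94, 55 and 55 counts in a library, and the other markers at most 14. The summed level of 6 red cell genes was 332 to 386 CPM in CSDS, above the 88.1 to 120 CPM of Control and the 67.1 to 206 CPM of the SSDS libraries. The summed level of 8 choroid plexus markers was 557 CPM in Control 1 and 172 CPM in Control 2, against 16.0 to 42.5 CPM in the other 10 libraries; its part in the comparisons with Control was not tested. Because the samples are bulk tissue, fewer microglia and less RNA per microglial cell cannot be told apart.

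Promoters are shown for the neighbouring genes P2ry12 and P2ry13, whose levels spread very differently over the libraries, for C1qb and C1qc, which lie side by side and varied together, and for Cd53, the gene of the set with the smallest p in 3 of the 4 comparisons. RefSeq windows of build GRCm38.p6, from 250 bases before to 50 bases after the start site, were found for 25 of the 33 genes. Capitals mark the letters GAGGAAG, the core of sites of the myeloid factor PU.1 on either strand, or GGGA and TTCC with 2 bases of any kind between them, the core of NF-kB sites, on either strand. All 5 genes lie on the minus strand, and the sequences run 5′ to 3′ in the direction of transcription, at chr3:59262936-59263235 (P2ry12), chr3:59210833-59211132 (P2ry13), chr4:136886151-136886450 (C1qb), chr4:136892865-136893164 (C1qc) and chr3:106790100-106790399 (Cd53).
P2ry12: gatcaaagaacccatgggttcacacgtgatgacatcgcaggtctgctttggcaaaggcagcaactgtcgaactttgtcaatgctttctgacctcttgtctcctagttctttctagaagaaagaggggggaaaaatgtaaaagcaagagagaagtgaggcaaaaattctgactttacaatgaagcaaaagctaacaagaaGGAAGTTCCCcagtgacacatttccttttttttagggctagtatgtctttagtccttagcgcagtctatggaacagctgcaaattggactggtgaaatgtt
P2ry13: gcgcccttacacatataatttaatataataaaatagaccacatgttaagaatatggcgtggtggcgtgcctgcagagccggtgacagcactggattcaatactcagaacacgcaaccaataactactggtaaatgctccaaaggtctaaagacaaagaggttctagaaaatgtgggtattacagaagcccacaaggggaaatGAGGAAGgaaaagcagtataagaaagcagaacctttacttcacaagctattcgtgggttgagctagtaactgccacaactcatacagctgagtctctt
C1qb: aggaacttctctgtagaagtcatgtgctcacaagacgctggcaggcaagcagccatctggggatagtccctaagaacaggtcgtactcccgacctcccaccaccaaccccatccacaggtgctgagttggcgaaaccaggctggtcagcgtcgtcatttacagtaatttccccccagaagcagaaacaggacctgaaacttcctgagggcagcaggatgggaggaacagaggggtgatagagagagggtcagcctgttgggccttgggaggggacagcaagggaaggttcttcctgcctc
C1qc: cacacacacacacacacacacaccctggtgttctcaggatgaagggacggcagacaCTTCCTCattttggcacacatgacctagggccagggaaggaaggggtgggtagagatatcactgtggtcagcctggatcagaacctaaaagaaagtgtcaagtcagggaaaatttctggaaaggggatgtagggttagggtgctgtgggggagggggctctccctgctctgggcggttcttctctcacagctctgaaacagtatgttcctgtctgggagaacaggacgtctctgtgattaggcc
Cd53: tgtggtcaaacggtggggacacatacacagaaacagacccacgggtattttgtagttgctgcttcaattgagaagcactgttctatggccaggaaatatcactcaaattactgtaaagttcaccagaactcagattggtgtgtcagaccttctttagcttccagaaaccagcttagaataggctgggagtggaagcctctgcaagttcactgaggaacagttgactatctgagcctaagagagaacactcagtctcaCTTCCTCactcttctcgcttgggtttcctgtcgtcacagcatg
The PU.1 letters were found on either strand in 11 of the 25 windows (44%), against 13.5% of all 27025 RefSeq promoter windows of this length. The 11 genes were the identity genes P2ry13 and Fcrls, the shared genes C1qc, Cd53, Ctss, Itgam, Laptm5 and Trem2, and the activation genes Axl, Nlrp3 and Spp1. Counted from the start site, the letters begin at -48 in P2ry13, at 8 in Cd53 and at -194 in C1qc. The interferon response letters, GAAA and GAAA with 2 bases of any kind between them on either strand, were found in Aif1, Ctss and Spp1 (12%, against 3.49% of all windows). The NF-kB letters were found in P2ry12 alone of the 25 (4%, against 1.43%), beginning at -51; the C1qb window held none of the 3 motifs. A match describes the letters of a window and is no evidence of binding.

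Per length, the set spanned about 4 orders of magnitude. Apoe, a lipid carrier made chiefly by astrocytes in brain, averaged 831 FPKM (the authors' fragment values scaled by gene length and library size) over the 12 libraries. The genes for the 3 chains of complement C1q followed, with C1qa at 54.6, C1qb at 46.8 and C1qc at 23.2 FPKM, together with the lysosomal protease Ctss at 52.7 FPKM. Identity genes lay between 14.6 FPKM for Csf1r and 2.94 FPKM for the zinc-finger factor Sall1, with P2ry12 at 12.5, Tmem119 at 10.5 and Cx3cr1 at 10.4 FPKM. At the low end were Nlrp3 at 0.209, Cst7 at 0.165, Tlr4 at 0.142, the beta-glucan receptor Clec7a at 0.134 and Itgax, which encodes CD11c, at 0.0795 FPKM. Markers of resting microglia were thus plainly measured, and 3 genes of the disease-associated state, Cst7, Clec7a and Itgax, were close to the limit of detection, with 0 to 30 counts per library. Every one of the 11 identity genes had at least 123 counts in each library.

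**Figure D1:**
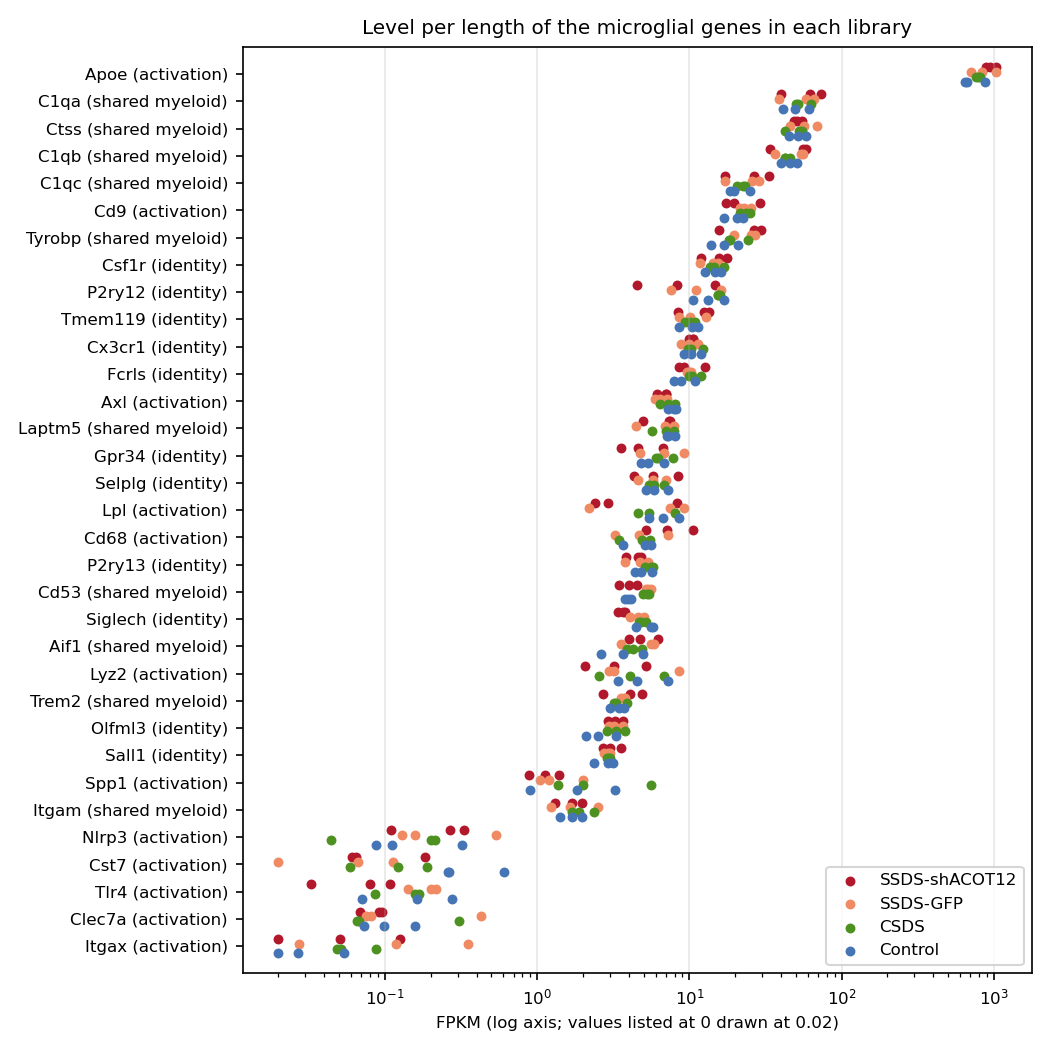
Level per length (FPKM, log axis) of each of the 33 genes, 1 point per library, ordered by mean, with the role of the gene in brackets; colours are the 4 groups with SSDS-shACOT12 drawn highest in each row, and values listed at 0 are drawn at 0.02. Apoe stands near 831 FPKM on average, the identity and shared myeloid genes average 1.78 to 54.6 FPKM, and the lowest 5 genes average 0.0795 to 0.209 FPKM with wide spread.

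Neighbours in the genome did not always vary alike. C1qb, C1qc and C1qa sit in a row on chr4 (chr4:136880129-136886187, chr4:136889804-136893065 and chr4:136895917-136898803, mm10), with gaps of 3616 and 2851 bases, and their proteins assemble into 1 complex. The FPKM ratio of C1qb to C1qc stayed between 1.77 and 2.46 over the 12 libraries. P2ry13 and P2ry12 (chr3:59207892-59210882 and chr3:59216272-59262871) encode related ADP receptors 5389 bases apart, and their ratio, P2ry12 over P2ry13, ran from 1.16 in SSDS-shACOT12 3 to 4.27 in SSDS-GFP 2. P2ry12 was 3.68 times higher in its highest than in its lowest library and P2ry13 1.55 times. Both lie inside Med12l, which runs on the other strand, and the library kit is not stated to keep strand; Med12l read 23.4, 23.6 and 16.7 CPM in SSDS-shACOT12, 15.7, 23.4 and 20.2 CPM in SSDS-GFP, 18.3, 20.9 and 24.9 CPM in CSDS and 29.3, 22.9 and 32.7 CPM in Control. Gpr34 lies in the same way inside Cask, which differed little, at 48.7 to 67.2 CPM over all libraries. In all, 9 of the 33 genes overlap another annotated gene, and 5 of them (P2ry12, P2ry13, Cx3cr1, Csf1r and Gpr34) overlap one with more than 1000 counts in total.

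Libraries of the same group differed in the set, and P2ry12 and Gpr34 were low in the libraries where the C1q genes were highest. P2ry12, the ADP receptor that steers microglial processes, had 21.5, 37.5 and 11.8 CPM in SSDS-shACOT12, 28.6, 40.9 and 19.6 CPM in SSDS-GFP, 41.0, 39.4 and 39.4 CPM in CSDS and 34.3, 27.1 and 43.4 CPM in Control. The 3 lowest values were those of SSDS-shACOT12 3, SSDS-GFP 3 and SSDS-shACOT12 1, the libraries that stood apart on the first principal component. Gpr34, a receptor for lysophosphatidylserine, was lowest in the same 3 libraries, at 7.62, 10.1 and 9.77 CPM, with the next at 10.3 CPM in Control 2. So was Lpl, the lipoprotein lipase of the disease-associated state, which hippocampal neurons also express: SSDS-shACOT12 had 31.3, 86.5 and 25.8 CPM, SSDS-GFP 78.8, 97.0 and 23.5 CPM, CSDS 57.2, 83.9 and 48.7 CPM, and Control 72.2, 57.9 and 89.9 CPM.

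The C1q genes and Tyrobp were highest in those 3 libraries, for C1qa by a small margin over CSDS 1. C1qa had 65.8, 41.5 and 78.1 CPM in SSDS-shACOT12, 61.5, 40.6 and 69.4 CPM in SSDS-GFP, 65.4, 52.1 and 54.6 CPM in CSDS and 44.0, 64.7 and 51.3 CPM in Control. Tyrobp, the signalling adaptor of Trem2, had 18.0, 10.5 and 20.3 CPM in SSDS-shACOT12, 17.2, 13.1 and 18.4 CPM in SSDS-GFP, 16.2, 12.2 and 12.5 CPM in CSDS and 9.48, 11.4 and 13.9 CPM in Control. C1qb, C1qc and the lysosomal glycoprotein gene Cd68 had the same 3 libraries on top, with Cd68 at 13.6 CPM in SSDS-shACOT12 3, 9.26 CPM in SSDS-GFP 3 and 9.15 CPM in SSDS-shACOT12 1, and 4.07 to 7.16 CPM in the others. The FPKM ratio of C1qa to P2ry12 was 7.51, 2.71 and 16.2 in SSDS-shACOT12, 5.27, 2.43 and 8.66 in SSDS-GFP, 3.91, 3.24 and 3.40 in CSDS and 3.14, 5.85 and 2.89 in Control. Not every identity gene was low there. Tmem119, a surface marker of microglia, had 31.9, 19.4 and 29.8 CPM in SSDS-shACOT12, 23.5, 19.8 and 30.1 CPM in SSDS-GFP, 25.6, 21.7 and 23.6 CPM in CSDS and 20.1, 24.3 and 26.6 CPM in Control, with its 3 highest values in the same 3 libraries. Cx3cr1, the fractalkine receptor, stayed between 39.4 and 55.3 CPM throughout. Of the 3 libraries 2 belong to SSDS-shACOT12 and 1 to SSDS-GFP, and none to CSDS or Control. They are the extremes of the first principal component of all tested genes, the set included. How many of all genes have them highest or lowest was not counted. The part of RNA quality or of cells other than microglia in these values was not tested.

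**Figure D2:**
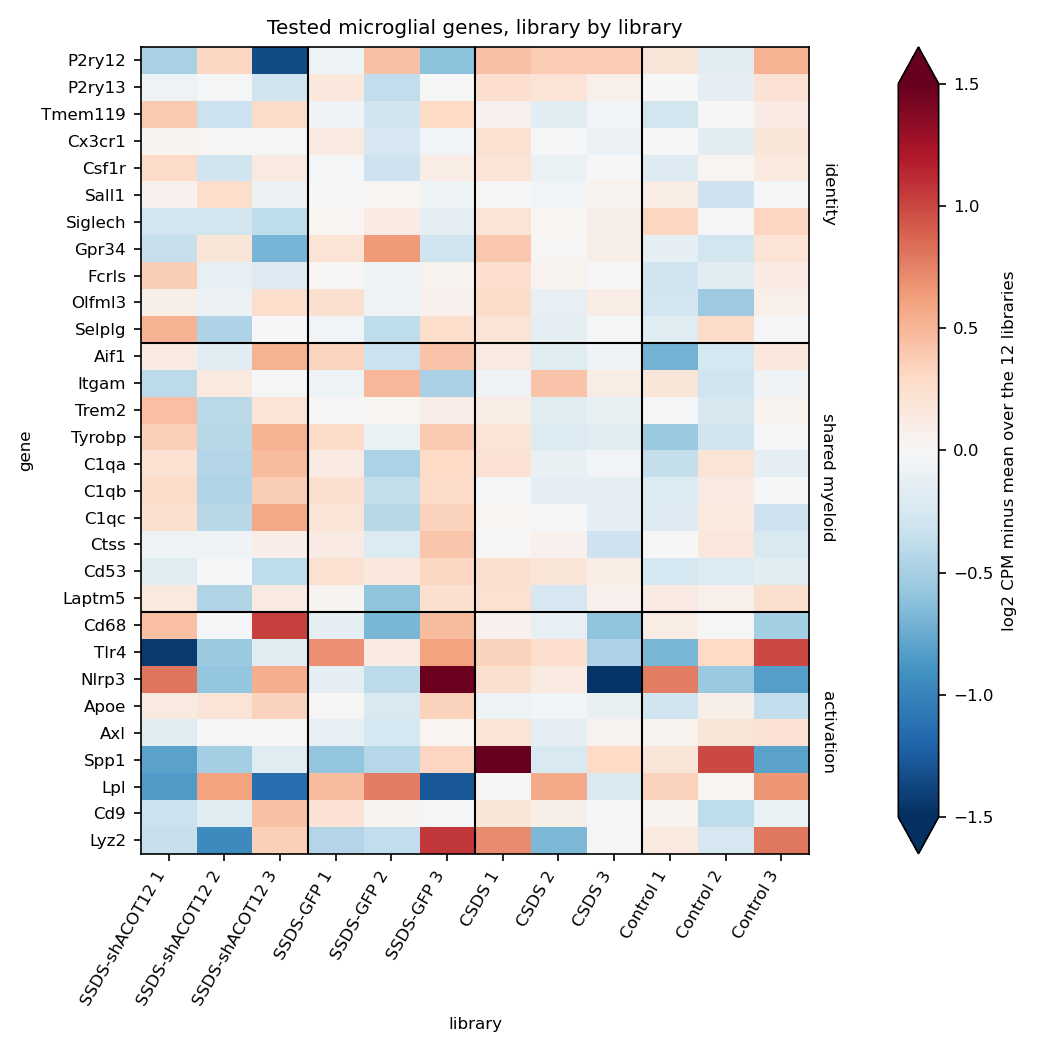
The 30 tested genes (rows, grouped by role) in the 12 libraries (columns); colour is the log2 CPM of a library minus the gene's mean over the 12 libraries, red above and blue below, with the scale ending at 1.5 on either side. SSDS-shACOT12 1, SSDS-shACOT12 3 and SSDS-GFP 3 are blue for P2ry12, Gpr34 and Lpl and red for Tyrobp, the C1q genes and Cd68. The CSDS and Control columns are not paler throughout, with Tyrobp at -0.56 in Control 1 and Cd68 at -0.60 in CSDS 3.

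Spread within a group differed accordingly. The median within-group SD of log2 CPM over the 30 tested genes was 0.37 in SSDS-shACOT12, 0.31 in SSDS-GFP, 0.17 in CSDS and 0.24 in Control, beside 0.31, 0.25, 0.16 and 0.16 for all tested genes. SSDS-shACOT12 3 was the highest library for 8 of the 30 genes, 5 of them shared myeloid genes, and SSDS-GFP 2 the lowest for 7. The shares of all genes with these libraries highest or lowest were not counted, so these numbers are not a trait of the set. The mean of the 10 shared myeloid genes, as log2 CPM relative to the mean of all libraries, was 0.12, -0.27 and 0.25 in SSDS-shACOT12 and 0.15, -0.18 and 0.23 in SSDS-GFP, against 0.11, -0.04 and -0.07 in CSDS and -0.20, -0.06 and -0.05 in Control. In both SSDS groups library 2 was low and the other two were high, so the groups overlapped. The mean of the 11 identity genes was 0.05, -0.07 and -0.21 in SSDS-shACOT12, 0.06, -0.05 and -0.04 in SSDS-GFP, 0.23, 0.01 and 0.06 in CSDS and -0.07, -0.13 and 0.17 in Control.

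**Figure D3:**
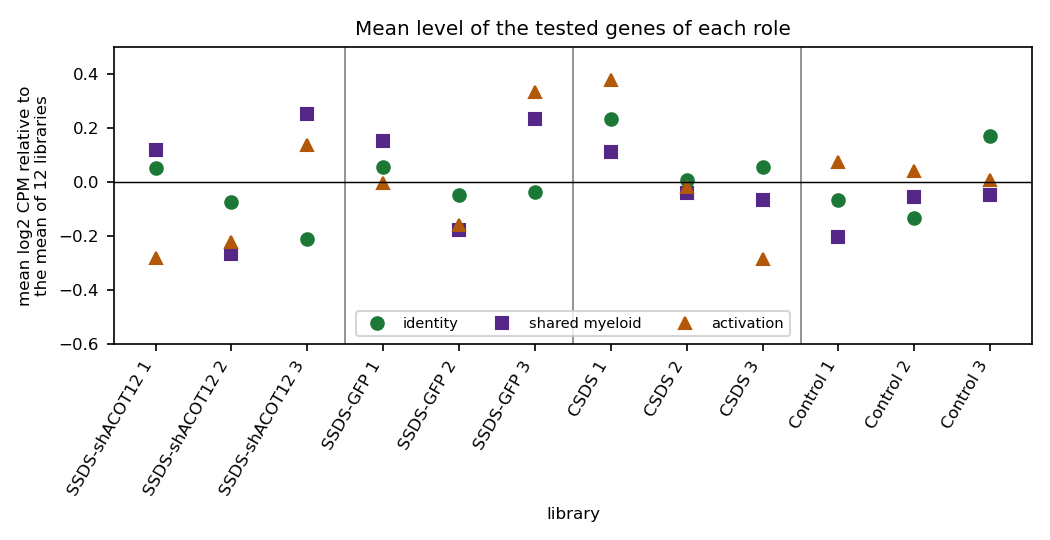
Mean log2 CPM of the tested genes of each role (11 identity, 10 shared myeloid and 9 activation genes) in each library, relative to the mean over the 12 libraries, in the order SSDS-shACOT12, SSDS-GFP, CSDS and Control. The shared myeloid mean runs from -0.27 in SSDS-shACOT12 2 to 0.25 in SSDS-shACOT12 3, and for none of the 3 roles do all libraries of 1 group lie above all libraries of another.

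For Csf1r, Selplg, Laptm5, Olfml3, Trem2 and Spp1 the groups overlapped in all 4 comparisons. Csf1r had 87.3, 58.2 and 78.7 CPM in SSDS-shACOT12, 70.4, 57.6 and 77.2 CPM in SSDS-GFP, 82.4, 66.9 and 71.9 CPM in CSDS and 62.7, 72.9 and 78.9 CPM in Control. Its lowest values were library 2 of each SSDS group, as they were for Selplg, the P-selectin ligand gene, and for Laptm5, a lysosomal membrane gene. Olfml3, a secreted protein gene of microglia, had 20.4, 18.1 and 23.1 CPM in SSDS-shACOT12, 22.7, 18.1 and 20.0 CPM in SSDS-GFP, 23.3, 17.6 and 20.6 CPM in CSDS and 15.7, 13.1 and 20.2 CPM in Control. Against Control its log2 fold change was 0.33 ± 0.18 in SSDS-shACOT12 (edgeR adjusted p = 0.263), 0.31 ± 0.18 in SSDS-GFP (adjusted p = 0.421) and 0.33 ± 0.18 in CSDS (adjusted p = 0.867), with the same 3 Control libraries in each. Trem2 had 24.4, 13.5 and 20.6 CPM in SSDS-shACOT12, 17.8, 18.2 and 19.0 CPM in SSDS-GFP, 19.3, 15.9 and 16.5 CPM in CSDS and 17.4, 15.1 and 18.6 CPM in Control. The knockdown group held both the highest and the lowest Trem2 level of the 12 libraries. Spp1, which encodes the secreted protein osteopontin, had 149 counts (9.33 CPM) in CSDS 1 and 24 to 84 counts in the other 11 libraries, and its interval in CSDS against Control ran from -0.55 to 1.71. Of the genes too low to test, Itgax had 0 to 30 counts per library, Clec7a 3 to 20 and Cst7 0 to 10.

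CSDS against Control sets stressed mice with no named virus beside untreated mice. None of the 30 tested genes passed the edgeR quasi-likelihood test at a Benjamini-Hochberg adjusted p of 0.05, and 0 of all 16915 genes did (0%). At an unadjusted p under 0.05, 1 of the 30 genes was counted, against 993 of all genes (5.87%, with 2.86% higher in CSDS); DESeq2 called 6 genes and limma-trend 0, none of the set in either. The exception at the unadjusted level was Cd53, a tetraspanin of white blood cells, which had 9.52, 9.17 and 8.69 CPM in CSDS, against 6.70, 6.94 and 7.20 CPM in Control. All CSDS libraries lay above all Control libraries, at a log2 fold change of 0.39 ± 0.16 (SE, n = 3 each, edgeR adjusted p = 0.849). Groups did not overlap for 1 of the 30 genes, while they did not for 20.3% of all genes, 10.2% with CSDS higher. The red cell sum given above was likewise higher in every CSDS library; its part in the Cd53 value was not tested.

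The identity genes differed little between CSDS and Control. Their median log2 fold change was 0.07, with 8 of 11 above 0, beside a median of 0.00146 over all genes, of which 50.3% lay above 0. P2ry12 averaged 39.9 ± 0.943 CPM in CSDS and 34.9 ± 8.17 CPM in Control (SD, n = 3 each), a log2 difference of 0.19 with a 95% interval of -0.54 to 0.92. Cx3cr1 differed by 0.03 (-0.27 to 0.32), Csf1r by 0.04 (-0.32 to 0.40), Tmem119 by 0.00 (-0.43 to 0.43) and Sall1 by 0.07 (-0.24 to 0.38). For these 4 the interval leaves out a change of 1.5-fold in either direction. The intervals of all 11 identity genes and all 10 shared myeloid genes lay within 2-fold, and those of 14 of the 30 genes within 1.5-fold.

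No shared myeloid gene other than Cd53 and no activation gene reached an unadjusted p under 0.05. Aif1, which encodes the microglial stain Iba1, averaged 6.69 ± 0.774 CPM in CSDS and 5.79 ± 1.76 CPM in Control (adjusted p = 0.959). Itgam, which encodes CD11b, averaged 10.0 ± 1.73 CPM and 8.62 ± 1.44 CPM in these groups (adjusted p = 0.949), and Cd68 5.80 ± 1.33 CPM and 6.10 ± 1.31 CPM (adjusted p = 0.996; SD, n = 3 each, edgeR). The activation genes had a median log2 fold change of -0.11 with 3 of 9 above 0; leaving out 1 library moved it between -0.22 (without CSDS 1) and 0.10 (without CSDS 3). Only 4 of the 9 had an interval within 2-fold. Tlr4, at 3 to 26 counts per library, had 0.939, 0.871 and 0.483 CPM in CSDS, against 0.398, 0.909 and 1.55 CPM in Control. Nlrp3, with 3 to 39 counts, had 0.877, 0.813 and 0.181 CPM in CSDS, against 1.33, 0.454 and 0.357 CPM in Control. At these counts a difference was not detectable, and the interval of the log2 fold change of Nlrp3 runs from -1.78 to 1.42.

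**Figure D4:**
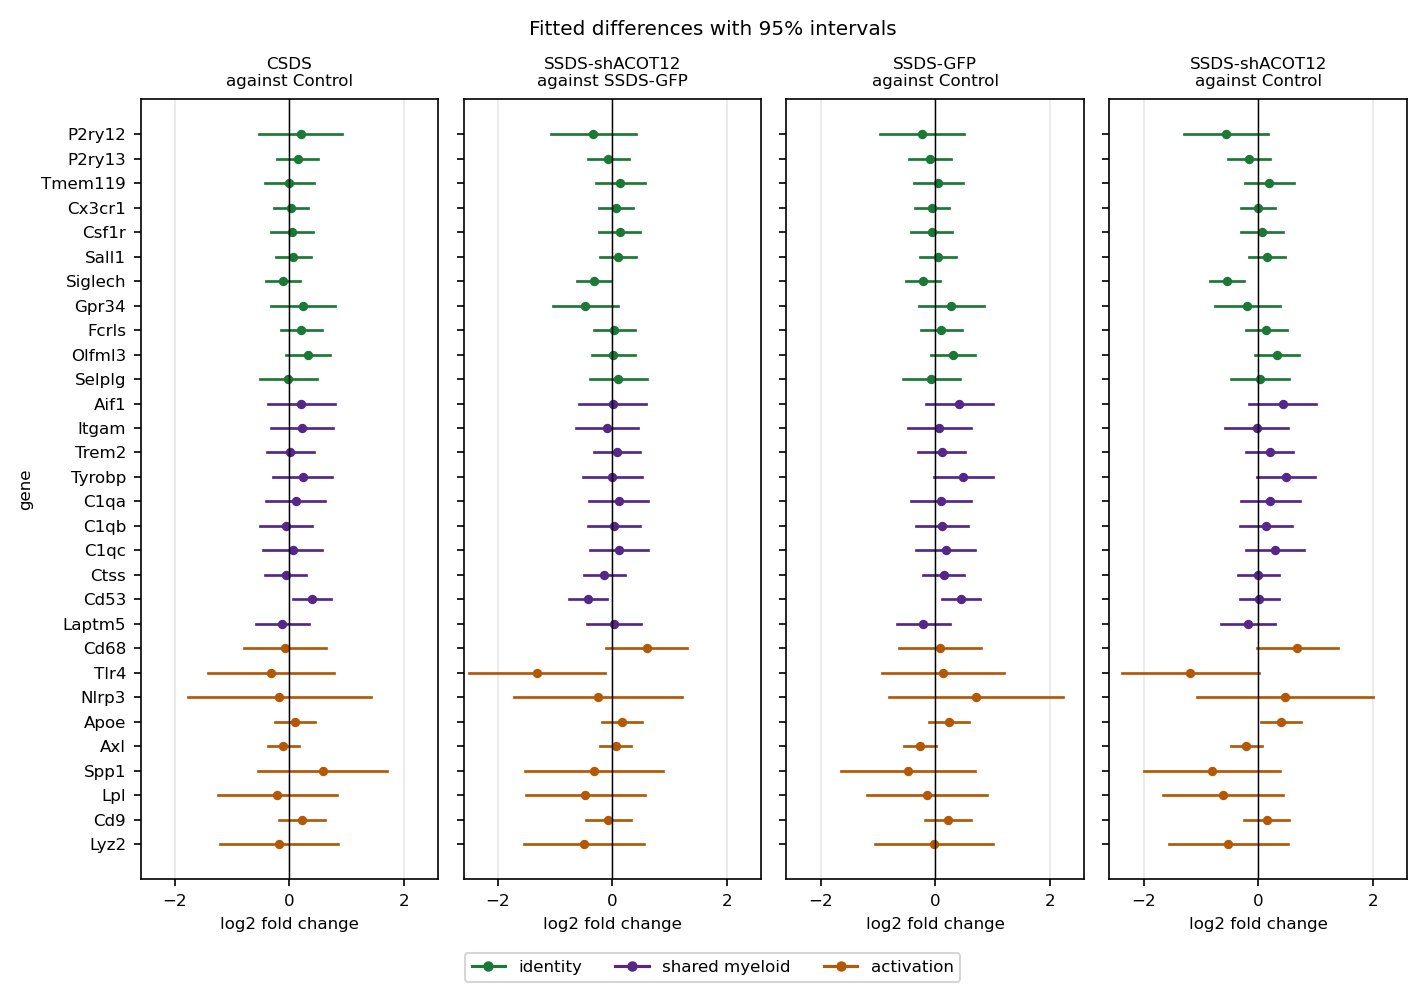
Log2 fold change (horizontal axis) of the 30 tested genes in the 4 comparisons, each the group named first over the group named second; points are edgeR estimates, bars are 95% intervals and colours are roles. Nearly all bars cross 0; identity and shared myeloid bars are mostly short, and Tlr4, Nlrp3, Spp1, Lpl and Lyz2 have the longest.

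SSDS-shACOT12 against SSDS-GFP addresses the knockdown in the liver, with SSDS common to both groups. None of the 30 genes passed the edgeR test, and 0 of all genes did (0%); at an unadjusted p under 0.05 there were 3 of 30, against 766 of all genes (4.53%, with 2.68% lower in SSDS-shACOT12), and DESeq2 and limma-trend called 0. The 3 genes were Siglech, Cd53 and Tlr4, and they are also the 3 whose groups did not overlap, all lower in SSDS-shACOT12, while the groups did not overlap for 4.81% of all genes, 2.58% with SSDS-shACOT12 lower. Cd53 had 7.11, 7.89 and 6.13 CPM in SSDS-shACOT12, against 9.46, 8.99 and 10.0 CPM in SSDS-GFP (log2 fold change -0.43 ± 0.16 SE, n = 3 each, edgeR adjusted p = 0.803). Siglech, a sialic acid-binding lectin of microglia, had 12.6, 12.7 and 11.9 CPM in SSDS-shACOT12, against 15.7, 16.9 and 14.1 CPM in SSDS-GFP (-0.33 ± 0.14, edgeR adjusted p = 0.803). The 3 knockdown libraries lay close together for Siglech, whereas for C1qb they ran from 37.0 to 65.7 CPM. Tlr4 had 0.186, 0.446 and 0.619 CPM in SSDS-shACOT12, against 1.23, 0.788 and 1.14 CPM in SSDS-GFP, a log2 fold change of -1.32 ± 0.55 with an interval of -2.51 to -0.13 (edgeR adjusted p = 0.803); these are 3 to 20 counts per library.

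The other genes overlapped between the groups. Cd68 averaged 9.78 ± 3.58 CPM in SSDS-shACOT12 and 6.44 ± 2.63 CPM in SSDS-GFP (log2 fold change 0.60 ± 0.33, edgeR adjusted p = 0.803). P2ry12 averaged 23.6 ± 13 CPM in SSDS-shACOT12 and 29.7 ± 10.7 CPM in SSDS-GFP (-0.33 ± 0.34, edgeR adjusted p = 0.818). Libraries of these groups with the same number deviated together. Set against the library of the same number, the tested genes Cd68, Csf1r, C1qa and Apoe were higher in all 3 SSDS-shACOT12 libraries. P2ry12, Gpr34 and Spp1 were lower in all 3, as were Siglech, Cd53 and Tlr4. The share of all genes that go the same way in all 3 was not counted. With the number as a block none of the set passed the edgeR test. Tyrobp, Aif1 and C1qb were nearly level, with log2 fold changes of 0.00, 0.00 and 0.02 and intervals of -0.51 to 0.51, -0.58 to 0.58 and -0.43 to 0.48. The medians were 0.03 for identity, 0.01 for shared myeloid and -0.24 for activation genes, against 0.0135 over all genes, and 22 of the 30 intervals lay within 2-fold. Single libraries moved these medians across 0. The activation median was 0.0187 when SSDS-shACOT12 2 was left out, 0.14 when SSDS-GFP 3 was and -0.0918 when SSDS-GFP 2 was; the filter of 50 counts gave -0.0689. The shared myeloid median ran from -0.14 without SSDS-GFP 2 to 0.22 without SSDS-shACOT12 2, and the identity median from -0.10 without SSDS-shACOT12 1 to 0.10 without SSDS-GFP 1.

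SSDS-GFP against Control compares virus with SSDS to no treatment. None of the 30 genes passed the test, beside 16 of all genes (0.0946%), 13 higher and 3 lower. At an unadjusted p under 0.05 there was 1 of 30, Cd53, against 2563 of all genes (15.2%); DESeq2 called 527 genes and limma-trend 12, none of the set. Cd53 had 9.46, 8.99 and 10.0 CPM in SSDS-GFP, against 6.70, 6.94 and 7.20 CPM in Control (log2 fold change 0.45, edgeR adjusted p = 0.203). All SSDS-GFP libraries were above all Control libraries; the Control libraries here are those used for CSDS, so the positions of Cd53 in the 2 comparisons are not separate evidence. Axl, the receptor kinase that binds Gas6 on dying cells, was the other gene whose groups did not overlap (23.9% of all genes). It had 32.6, 29.7 and 36.3 CPM in SSDS-GFP, against 37.0, 40.3 and 41.3 CPM in Control (-0.27 ± 0.13, edgeR adjusted p = 0.343).

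Tyrobp averaged 16.2 ± 2.77 CPM in SSDS-GFP and 11.6 ± 2.19 CPM in Control (log2 fold change 0.49 ± 0.24, SD and n = 3 each, edgeR adjusted p = 0.357), and SSDS-GFP 2 at 13.1 CPM lay below Control 3 at 13.9 CPM. Of the 10 shared myeloid genes 9 had a log2 fold change above 0, with a median of 0.13, and of the 11 identity genes 5 did, with a median of -0.06; over all genes 50.8% were above 0 with a median of 0.0062. The shared myeloid median was 0.05 without SSDS-GFP 3 and 0.29 without SSDS-GFP 2. The activation genes had a median of 0.09, which became -0.27 without SSDS-GFP 3 and 0.24 without SSDS-GFP 2. Nlrp3 shows how much 1 library carried: it had 0.650, 0.525 and 2.23 CPM in SSDS-GFP, against 1.33, 0.454 and 0.357 CPM in Control. Its log2 fold change of 0.71 ± 0.70 turned to -0.27 without SSDS-GFP 3. Lyz2, the lysozyme gene of macrophages and neutrophils, was also highest in SSDS-GFP 3, with 3.97, 4.20 and 11.5 CPM in SSDS-GFP, against 6.03, 4.54 and 9.52 CPM in Control, a log2 fold change of -0.0245 ± 0.48 (edgeR adjusted p = 0.987).

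SSDS-shACOT12 against Control, which compares knockdown with SSDS to no treatment and cannot separate them, gave the smallest adjusted p of the set. None of the 30 genes passed the edgeR test, beside 14 of all genes (0.0828%), 9 higher and 5 lower. At an unadjusted p under 0.05 there were 3 of 30 genes, against 4097 of all genes (24.2%), so the share of the set was below that of all genes. Siglech came nearest, with 12.6, 12.7 and 11.9 CPM in SSDS-shACOT12, against 19.4, 15.3 and 19.4 CPM in Control. For Siglech, as for 25.5% of all genes, the groups did not overlap. All knockdown libraries were below all Control libraries, at a log2 fold change of -0.54 ± 0.14 (SE, n = 3 each, edgeR adjusted p = 0.0625). DESeq2, which called 1571 genes in all, called it at an adjusted p of 0.0143, the only gene of the set it called. Over all alternatives the log2 fold change of Siglech ran from -0.64 to -0.44 and its adjusted p from 0.0143 to 0.240. SSDS-GFP lay between, at 15.6 ± 1.44 CPM, with CSDS at 16.6 ± 0.986 CPM.

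Apoe had 1942, 2025 and 2259 CPM in SSDS-shACOT12, against 1442, 1894 and 1380 CPM in Control, without overlap (log2 fold change 0.40 ± 0.16, edgeR adjusted p = 0.160). Since astrocytes also make Apoe, the summed level of 10 astrocyte markers is given beside it: 3911 to 5376 CPM in SSDS-shACOT12 and 4318 to 4999 CPM in Control; its part in the Apoe value was not tested. Axl did not overlap either, at 31.4, 35.3 and 36.1 CPM in SSDS-shACOT12 and 37.0, 40.3 and 41.3 CPM in Control (-0.21 ± 0.13, edgeR adjusted p = 0.322); the groups did not overlap for 25.5% of all genes. Tlr4 was at -1.19 ± 0.55 (edgeR adjusted p = 0.199), with an overlap of 1 Control library. Of the identity genes, P2ry12 was at -0.57 (interval -1.30 to 0.17), Cx3cr1 at -0.01 (-0.31 to 0.29) and Tmem119 at 0.19 (-0.24 to 0.62). Cd53 averaged 7.05 ± 0.883 CPM in SSDS-shACOT12 and 6.95 ± 0.250 CPM in Control, a log2 fold change of 0.02.

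The outcome of this comparison depended on SSDS-shACOT12 2, the knockdown library that did not stand apart on the first principal component; on the second (15.9% of the variance) it had the highest value of all libraries, at 42.3, with the next at 21.4. Without it, 4280 genes were called by edgeR and 4 of the set were among them. P2ry12 then had a log2 fold change of -1.07 (adjusted p = 0.0230), Lpl of -1.36 (adjusted p = 0.0417), Siglech of -0.56 (adjusted p = 0.0199) and Tyrobp of 0.72 (adjusted p = 0.0204). With SSDS-GFP 3, SSDS-shACOT12 1 and SSDS-shACOT12 3 left out instead, a choice made after seeing the data that leaves 1 knockdown library, assumed to vary like those of the other groups, P2ry12 was at 0.10, Lpl at 0.24, Tyrobp at -0.14 and Siglech at -0.50, with none of the set called.

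**Figure D5:**
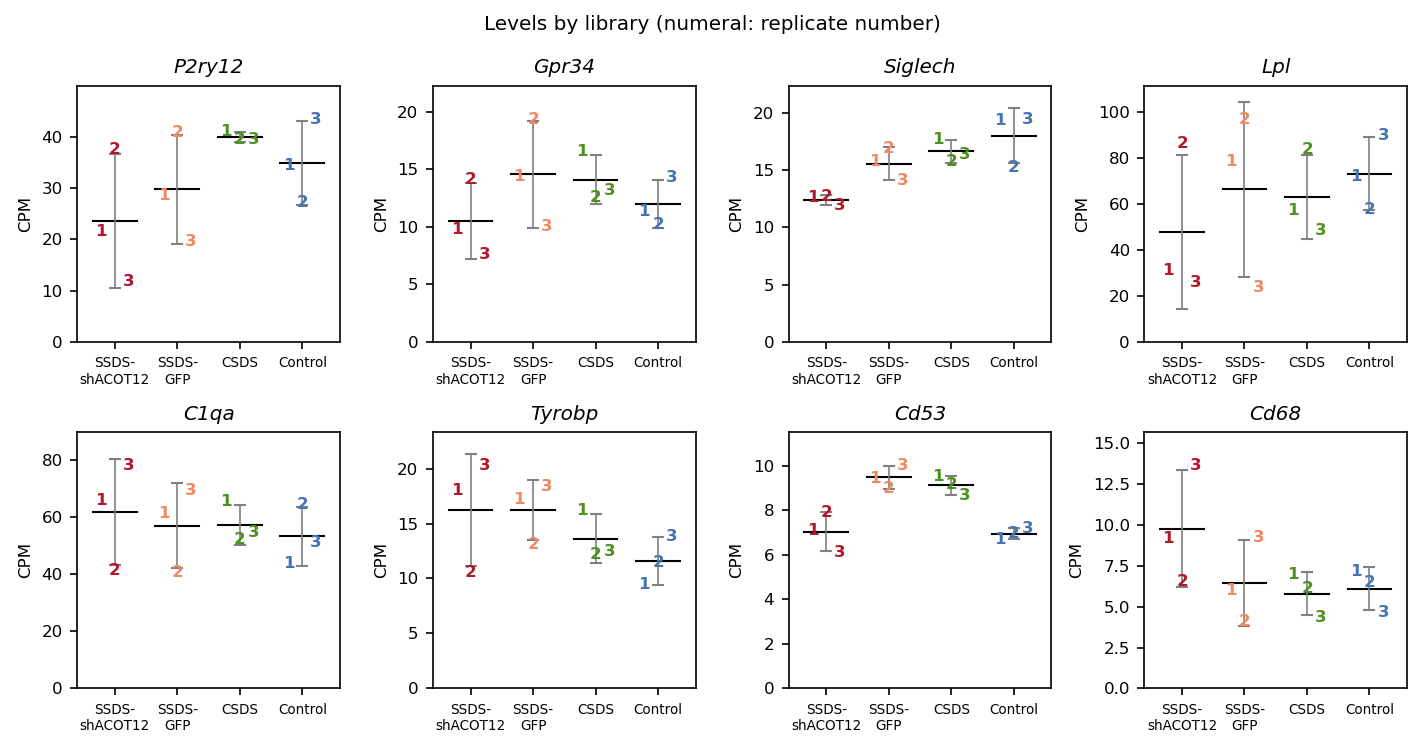
Levels in CPM (vertical axes, starting at 0) of P2ry12, Gpr34, Siglech, Lpl, C1qa, Tyrobp, Cd53 and Cd68 in the 4 groups; numerals are libraries by replicate number, horizontal lines are means and bars are 1 SD (n = 3). Libraries 1 and 3 of SSDS-shACOT12 and library 3 of SSDS-GFP are low for P2ry12, Gpr34 and Lpl and high for C1qa, Tyrobp and Cd68, while for Siglech the 3 SSDS-shACOT12 libraries sit together at 11.9 to 12.7 CPM, below all other libraries.

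Other genes of the same pathways were counted from 8 lists of 102 genes, and 0 of the 93 tested among them passed the edgeR test in any of the 4 comparisons. Among 18 further identity genes, the smallest p belonged in both comparisons of an SSDS group with Control to Cd33, a sialic acid-binding receptor that restrains microglial uptake. It had 4.02, 5.73 and 4.03 CPM in SSDS-shACOT12, 5.13, 5.45 and 4.35 CPM in SSDS-GFP, 8.08, 8.77 and 8.21 CPM in CSDS and 8.95, 7.79 and 10.2 CPM in Control. All 6 SSDS libraries lay below all 6 others. The share of all genes that split in this way was not counted. SSDS-shACOT12 and SSDS-GFP did not overlap with Control for 25.5% and 23.9% of all genes. Against Control the log2 fold change of Cd33 was -0.97 ± 0.20 in SSDS-shACOT12 (edgeR adjusted p = 0.0531) and -0.85 ± 0.20 in SSDS-GFP (adjusted p = 0.116). SSDS-shACOT12 differed from SSDS-GFP by -0.11. In the other comparisons the smallest p of that list belonged to Tgfbr2, a receptor for the TGF-beta that microglia need, at 0.40 ± 0.15 in SSDS-shACOT12 against SSDS-GFP (edgeR adjusted p = 0.803) and -0.39 ± 0.15 in CSDS against Control (adjusted p = 0.849).

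Among 20 tested genes of further activation markers, the tetraspanin gene Cd63 had 78.3, 83.0 and 101 CPM in SSDS-shACOT12, 85.2, 69.2 and 88.9 CPM in SSDS-GFP, 78.9, 67.3 and 70.6 CPM in CSDS and 58.9, 57.4 and 59.7 CPM in Control. Every Control library was lower than every other library, with edgeR adjusted p of 0.0565, 0.148 and 0.849 for SSDS-shACOT12, SSDS-GFP and CSDS. The share of all genes with every Control library lowest was not counted. Cd63 is not restricted to microglia, and the cell type behind these values was not tested. The smallest p of these markers was that of the costimulatory gene Cd86 in SSDS-shACOT12 against SSDS-GFP (-1.35 ± 0.54, edgeR adjusted p = 0.803) and of Ch25h, an enzyme that hydroxylates cholesterol, in CSDS against Control (-1.38 ± 0.55, adjusted p = 0.849). Of the 10 transcription factors, Mef2a, which neurons also express, had the smallest p in SSDS-shACOT12 against Control, with 103, 166 and 83.7 CPM, against 221, 184 and 244 CPM in Control (-0.88 ± 0.28, edgeR adjusted p = 0.10), and in SSDS-shACOT12 against SSDS-GFP (-0.43 ± 0.29, adjusted p = 0.803). Spi1, which encodes PU.1, had 5.32, 3.63 and 6.81 CPM in SSDS-shACOT12, 5.56, 3.87 and 6.69 CPM in SSDS-GFP, 4.32, 4.70 and 5.01 CPM in CSDS and 3.51, 1.82 and 3.99 CPM in Control. It was highest in SSDS-shACOT12 3 and SSDS-GFP 3, and in SSDS-GFP against Control its log2 fold change was 0.79 ± 0.32 (edgeR adjusted p = 0.268). In CSDS against Control, where every CSDS library was above every Control library (as for 10.2% of all genes), it was 0.59 ± 0.32 (adjusted p = 0.867).

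Of the ligands that act on microglial receptors, Il34, which neurons make for Csf1r, averaged 51.3 ± 8.19 CPM in SSDS-shACOT12, 49.8 ± 3.24 CPM in SSDS-GFP, 42.5 ± 5.13 CPM in CSDS and 36.2 ± 2.87 CPM in Control (SD, n = 3 each). All SSDS libraries were above all Control libraries (0.50 ± 0.14 in SSDS-shACOT12, edgeR adjusted p = 0.0760, and 0.46 ± 0.14 in SSDS-GFP, adjusted p = 0.165). Groups did not overlap for 25.5% and 23.9% of all genes in these comparisons. In CSDS against Control Il34 was at 0.23 ± 0.14 (adjusted p = 0.890). In SSDS-shACOT12 against SSDS-GFP the ligand with the smallest p was Cd47, the inhibitor of uptake by macrophages (-0.37 ± 0.22, edgeR adjusted p = 0.803). Among complement and Fc receptor genes, Fcer1g, the gamma chain of Fc receptors, stood at 0.66 ± 0.23 in SSDS-GFP against Control (edgeR adjusted p = 0.196), the Fc receptor gene Fcgr3 at -0.37 ± 0.22 in CSDS against Control (adjusted p = 0.889), and the complement gene C4b at 0.90 ± 0.39 in SSDS-shACOT12 against SSDS-GFP (adjusted p = 0.803) and 0.93 ± 0.39 in SSDS-shACOT12 against Control (adjusted p = 0.168). Of the Trem2 signalling genes, Lcp2 had the smallest p in SSDS-shACOT12 against SSDS-GFP (-0.82 ± 0.36, edgeR adjusted p = 0.803) and in CSDS against Control (-0.46 ± 0.36, adjusted p = 0.919), Inpp5d in SSDS-GFP against Control (-0.44 ± 0.25, adjusted p = 0.417) and Blnk in SSDS-shACOT12 against Control (0.81 ± 0.34, adjusted p = 0.168). Of the inflammasome genes, Txnip, an inhibitor of thioredoxin that binds Nlrp3, averaged 13.5 CPM in CSDS and 23.5 CPM in Control (-0.80 ± 0.23, edgeR adjusted p = 0.849). These groups did not overlap for Txnip, as for 20.3% of all genes. Txnip stood at -0.59 ± 0.23 in SSDS-shACOT12 against Control (edgeR adjusted p = 0.152). Pycard, the adaptor of the inflammasome, averaged 3.40 CPM in SSDS-GFP and 1.88 CPM in Control (0.85 ± 0.31, edgeR adjusted p = 0.215), and Il1b stood at -2.17 ± 1.3 in SSDS-shACOT12 against SSDS-GFP (adjusted p = 0.803). In the Tlr4 pathway the smallest p belonged to the adaptor ligase Traf6 in CSDS against Control (-0.35 ± 0.15, edgeR adjusted p = 0.849), to the NF-kB inhibitor Nfkbia in SSDS-shACOT12 against SSDS-GFP (-0.53 ± 0.21, adjusted p = 0.803), to Cd14 in SSDS-GFP against Control (1.28 ± 0.40, adjusted p = 0.175) and to the adaptor Myd88 in SSDS-shACOT12 against Control (0.41 ± 0.19, adjusted p = 0.203).

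Cytokine genes of activated microglia had their highest counts in SSDS-GFP 3 and the next highest in SSDS-shACOT12 3; they are named here after their counts were seen. Il1b had 6, 3 and 40 counts in SSDS-shACOT12, 0, 2 and 236 in SSDS-GFP, 11, 2 and 4 in CSDS and 3, 5 and 6 in Control. Tnf had 219 counts in SSDS-GFP 3, 11 in SSDS-shACOT12 3 and at most 3 in the other 10 libraries, and Il6 had 128, 14 and at most 5. Of the chemokine genes, Ccl3 had 186 counts in SSDS-GFP 3, 21 in SSDS-shACOT12 3 and at most 7 in the others, and Ccl4 had 127, 5 and at most 3. Cd14, the co-receptor of Tlr4, had 173 counts in SSDS-GFP 3 and 26 to 61 in the others. SSDS-GFP 3 also held the highest values of Nlrp3 (2.23 CPM), Lyz2 (11.5 CPM), Ctss (95.7 CPM), Itgax (1.72 CPM) and Clec7a (1.14 CPM) in the set, while its P2ry12 was 19.6 CPM and its Cx3cr1 45.6 CPM. With the monocyte and neutrophil sum of 8.92 CPM in this library, 3 of the 11 markers were at 0 counts; their part in these values was not tested. Neither other SSDS-GFP library shared this profile.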

How the data were processed

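Total RNA (1 µg) of ventral hippocampus was made into libraries with a NEBNext Ultra RNA kit, per the labels' protocols. The submitters' processing notes name HISAT2 2.0.5, build mm10, featureCounts 1.5.0-p3 and DESeq2; the annotation release and strand setting are not given in the sources used here. The authors deposited raw counts per gene for 54532 genes, FPKM that the values show to be these counts scaled by gene length and a library size 0.958 to 1.06 times the count total, and gene length in bases (a unit other than expression). FPKM is used here to compare genes per length.

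Counts were filtered with filterByExpr of edgeR 4.0.16 (minimum count 10, minimum total 15), scaled by TMM and fitted in R 4.3.3 with group as the factor over all 12 libraries. The quasi-likelihood test was 2-sided, with Benjamini-Hochberg adjustment over 16915 genes and a threshold of 0.05. Intervals are 95% intervals of the model; they and the CPM of 1 count cover these libraries and counting only. Errors of CPM are SD over 3 libraries.

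The 33 genes and all gene lists were chosen with earlier results of these data known. From each of 8 further lists, the gene with the smallest p in each comparison is named, since none passed the test. Promoters were matched by symbol, with chr18 left out for the set, and coordinates are those of the deposited table.

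The fits were tested on simulated data. What libraries with 1 replicate number share is not stated. Same-numbered libraries of SSDS-shACOT12 and SSDS-GFP deviated from their group means together, with correlations of 0.196, 0.419 and 0.353, each above 0.1, the bound set for pairing; the fit was therefore repeated with the number as a block; no other pair of groups met it. No 2 libraries held identical values. Alternatives were DESeq2 1.42.0 (size factors, and its Wald test), no filter, each library left out in turn, the replicate number as a block, the 6 libraries compared alone, at least 50 counts in 3 libraries, limma-trend (limma 3.58.1) on log2 FPKM with 0.1 or 1 added, and, chosen after seeing the data, leaving out the 3 libraries apart on the first principal component.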

Additional observations from a re-analysis of the deposited data

How the results depend on the processing

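No gene of the set was called under any alternative except for SSDS-shACOT12 against Control, where DESeq2 called 1, Siglech, and leaving out SSDS-shACOT12 2 gave 4. Over 1792 recomputed log2 fold changes of the 30 tested genes, 1620 kept their direction and their side of the threshold, 167 changed sign without being called under either setting, 5 were called where the main test made no call, and 0 reversed. The largest main value among those that changed sign was 0.71, for Nlrp3.

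The count of all genes called moved far more. For CSDS against Control (0) it was 6 by the DESeq2 Wald test, 132 without the filter, 78 with the 6 libraries alone and 27 with the 3 libraries apart left out. For SSDS-shACOT12 against SSDS-GFP (0) it was 108 without the filter and 17 with the 3 libraries left out. For SSDS-GFP against Control (16) it was 527 by DESeq2, 608 without the filter, 33 with the 6 libraries alone and 217 with the 3 left out. For SSDS-shACOT12 against Control (14) it was 1571 by DESeq2, 1741 without the filter, 350 with the filter of 50 counts, 0 with the 6 libraries alone, 24 by limma-trend with 1 added to FPKM and 744 with the 3 left out. The cause was not tested. With the 3 left out, the median log2 fold change became -0.14 for identity and -0.26 for shared myeloid genes in SSDS-shACOT12 against SSDS-GFP, -0.26 for activation genes in SSDS-GFP against Control and -0.23 for shared myeloid genes in SSDS-shACOT12 against Control.

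With the replicate number as a block, 0 genes were called in CSDS against Control and in SSDS-shACOT12 against SSDS-GFP, 9 in SSDS-GFP against Control and 3 in SSDS-shACOT12 against Control, and 0 of the set in each; the block changed no call of the set. Of all 18 pairs of the same number 5 correlated over the bound of 0.1, and 4 of the 12 libraries correlated best with their own number.

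Leaving out 1 library gave 0 to 1 called genes in CSDS against Control, 0 to 969 in SSDS-shACOT12 against SSDS-GFP (969 without SSDS-shACOT12 2), 4 to 16 in SSDS-GFP against Control and 1 to 4280 in SSDS-shACOT12 against Control (4280 without SSDS-shACOT12 2 and 324 without SSDS-shACOT12 1), with 0 to 4 of the set in the last. The median of identity genes then ran from -0.10 to 0.10 in SSDS-shACOT12 against SSDS-GFP. That of shared myeloid genes ran from 0.05 to 0.29 in SSDS-GFP against Control and from 0.0179 to 0.38 in SSDS-shACOT12 against Control. That of activation genes ran from -0.22 to 0.10 in CSDS against Control, from -0.33 to 0.14 in SSDS-shACOT12 against SSDS-GFP and from -0.27 to 0.24 in SSDS-GFP against Control. Depth limits what can be said of Tlr4, Nlrp3, Cst7, Itgax and Clec7a, which had 0 to 39 counts per library.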
